A study of Mus musculus with 6 samples.

Results

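The purine nucleotide interconversion genes described here were Gmpr, Gmpr2, Impdh1, Impdh2, Gmps, Hprt, Adk, Ada, Ampd3 and Xdh, which together pass the purine ring between its adenine, guanine and hypoxanthine forms. They were chosen by symbol around Gmpr, because Gmpr had one of the largest falls in this dataset, and all 10 were found among the 35976 genes of the count table. The RNA came from the interscapular brown adipose tissue (BAT) of male C57BL/6J mice aged 10 weeks, 3 wild-type (WT) and 3 sST2-KO, with 1 library per mouse. sST2 is the soluble form of the interleukin-33 receptor, made from Il1rl1 by an alternative end of the transcript, and the knockout removed from every cell, by CRISPR/Cas9, the intron of Il1rl1 that supplies this end, while WT mice were littermates. All 6 mice, WT included, had had their BAT surgically denervated, had been kept for 7 days at 30 °C and were then placed at 10 °C for 8 h, so that the comparison is between genotypes of denervated, cold-exposed BAT. No intact or warm-kept BAT was sequenced in the libraries used here. The knockout was not restricted to adipocytes or to BAT.

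GMP reductase turns GMP back into IMP, while IMP dehydrogenase and GMP synthetase carry IMP forward to GMP, so that the enzymes stand on opposite arms of a loop. IMP is also made from AMP by AMP deaminase and from hypoxanthine by HPRT, and what is not reused leaves through adenosine deaminase and xanthine dehydrogenase as urate. In BAT, purine nucleotides bind the uncoupling protein UCP1 and hold it inactive until fatty acids relieve the block, and the GMP reductase transcript is known from rat BAT as one that rises in the cold.

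By mean level per length, Gmpr was the most abundant of the group in WT BAT and one of the least abundant in sST2-KO BAT. In WT replicate 2 Impdh1 was above Gmpr on this scale. The paralog Gmpr2 stayed at a low level in both genotypes. On the opposite arm, Impdh1 and Gmps were lower in sST2-KO and Impdh2 was not called. Adk was lower as well. The calls of Impdh1, Gmps and Adk each depended on single libraries and were lost with libraries scaled by total counts. Hprt and Ada had higher values in every sST2-KO library than in any WT library but missed the threshold, and the values of Ampd3 and Xdh overlapped between the genotypes.

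Each library held between 8159442 and 12874809 counts. After a filter on low counts 14542 genes were tested, and all 10 members passed it. Levels are given as CPM, which are counts scaled to a common library size with TMM factors, and the threshold for a call was an adjusted p of 0.05 in the quasi-likelihood test of edgeR, with the adjustment over all genes tested. Some libraries stood apart in marker genes of other tissues. The summed level of 10 hepatocyte genes was 5731 CPM in WT replicate 2 and 30.7 to 52.2 CPM in the other WT libraries. The summed level of 10 skeletal muscle genes was 3573 to 15140 CPM in sST2-KO and 6.41 to 1264 CPM in WT, all 10 higher in every sST2-KO library. Il1rl1 had 6 to 19 counts in WT and 55 to 142 in sST2-KO, but gene counts do not separate its soluble and membrane forms and so do not check the genotype.

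The promoters of the paralog pairs are shown because their members differed so much in these libraries. Each line holds the 250 bases before the annotated start in RefSeq, 5′ to 3′ on the strand of the gene, in GRCm38.p6, and capitals mark TGACG or its complement CGTCA, the core of the cAMP response element that transmits adrenergic signals in brown adipocytes.
Gmpr, chr13:45507194-45507443, plus strand: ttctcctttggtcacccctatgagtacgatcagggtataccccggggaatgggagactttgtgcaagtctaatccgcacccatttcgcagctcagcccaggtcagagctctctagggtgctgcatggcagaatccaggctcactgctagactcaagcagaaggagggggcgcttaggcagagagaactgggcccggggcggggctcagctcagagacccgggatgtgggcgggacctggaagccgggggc
Gmpr2, chr14:55671985-55672234, plus strand: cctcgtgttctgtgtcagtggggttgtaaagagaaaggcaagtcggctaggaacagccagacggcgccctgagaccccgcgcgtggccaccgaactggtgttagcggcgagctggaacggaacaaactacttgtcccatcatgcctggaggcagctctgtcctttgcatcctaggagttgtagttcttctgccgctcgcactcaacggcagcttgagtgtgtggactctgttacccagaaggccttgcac
Impdh1, chr6:29216365-29216614, minus strand: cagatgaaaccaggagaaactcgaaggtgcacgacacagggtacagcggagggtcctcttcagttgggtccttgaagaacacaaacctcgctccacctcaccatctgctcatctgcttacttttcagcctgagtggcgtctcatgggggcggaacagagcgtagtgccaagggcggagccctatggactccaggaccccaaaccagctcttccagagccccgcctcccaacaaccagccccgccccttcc
Impdh2, chr9:108560186-108560435, plus strand: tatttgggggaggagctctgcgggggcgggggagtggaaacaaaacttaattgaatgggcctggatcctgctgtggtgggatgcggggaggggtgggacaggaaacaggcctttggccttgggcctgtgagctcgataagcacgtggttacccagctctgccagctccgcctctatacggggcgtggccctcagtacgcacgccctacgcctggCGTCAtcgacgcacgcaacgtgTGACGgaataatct
The Gmpr, Gmpr2 and Impdh1 windows held no match on either strand, and the Impdh2 window held 2. Impdh1 has another annotated start, with a window at chr6:29212298-29212547 that is not printed. It held no match either, and its GC content was 69.6%. Which start is used in BAT was not tested. The letters occurred in 5836 of 32851 mouse promoter windows of this length (17.8%), and the full palindrome TGACGTCA, which contains them, in 508 (1.55%) and in none of the windows printed. Elsewhere among the members the first window of Gmps and that of Adk held 1 match each. A match is a string of letters and no match says only that these letters are not in this window. The GC content of the printed windows was 61.2% for Gmpr, 57.6% for Gmpr2, 59.2% for Impdh1 and 60.8% for Impdh2. The median over all windows was 52.4%.

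Gmpr encodes GMP reductase, the only known enzyme activity that returns guanine nucleotides to IMP. The gene occupies chr13:45660889-45707276 (GRCm39, plus strand). The deposited counts were 10257, 13070 and 27873 in WT but 256, 415 and 113 in sST2-KO. As normalized levels these were 957, 1232 and 3436 CPM in WT and 17.8, 49.3 and 11.2 CPM in sST2-KO. The groups stood far apart, and within WT the third replicate was the highest by a wide margin. The mean was 1875 ± 1359 CPM in WT and 26.1 ± 20.3 CPM in sST2-KO (SD, n = 3 each), and the fitted log2 fold change was -6.17 (SE 0.83). This was the fifth lowest of the 14542 genes. Because this fall chose the list, it is given as a description with no test. Leaving out single libraries gave log2 fold changes between -7.03 and -5.40, the latter without WT replicate 3.

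The brown adipocyte markers were lower in sST2-KO, as Gmpr was. The summed level of 8 such genes was 8212, 10180 and 15510 CPM in WT and 519, 1796 and 338 CPM in sST2-KO, and each of the 8 was lower in every sST2-KO library than in any WT library. For this sum the libraries stood in the same order as for Gmpr within each genotype. Ucp1 made up most of it in WT, at 5229, 6460 and 10520 CPM. Of the single markers, Ucp1, Cidea, Cox7a1 and Cox8b had the WT order of Gmpr. Dio2, Ppargc1a and Prdm16 were highest in WT replicate 2, and Elovl3 was lowest there. In sST2-KO, Dio2 and Ppargc1a departed from the order of Gmpr and the other markers had it. The adipocyte markers shared with white fat were less far apart, with 23530 to 29430 CPM over 8 genes in WT and 6976 to 14770 CPM in sST2-KO. In bulk tissue fewer brown adipocytes and less RNA of a gene per brown adipocyte cannot be told apart, and the part of the markers in the fall of Gmpr was not tested. Gmpr also overlaps Atxn1 on the opposite strand, and the strand setting of the counting is not given in the sources used here. Atxn1 had 47.3, 91.9 and 113 CPM in WT and 24.3, 34.7 and 35.1 CPM in sST2-KO, levels far below those of Gmpr in WT and of the same order as Gmpr in sST2-KO.

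**Figure D1:**
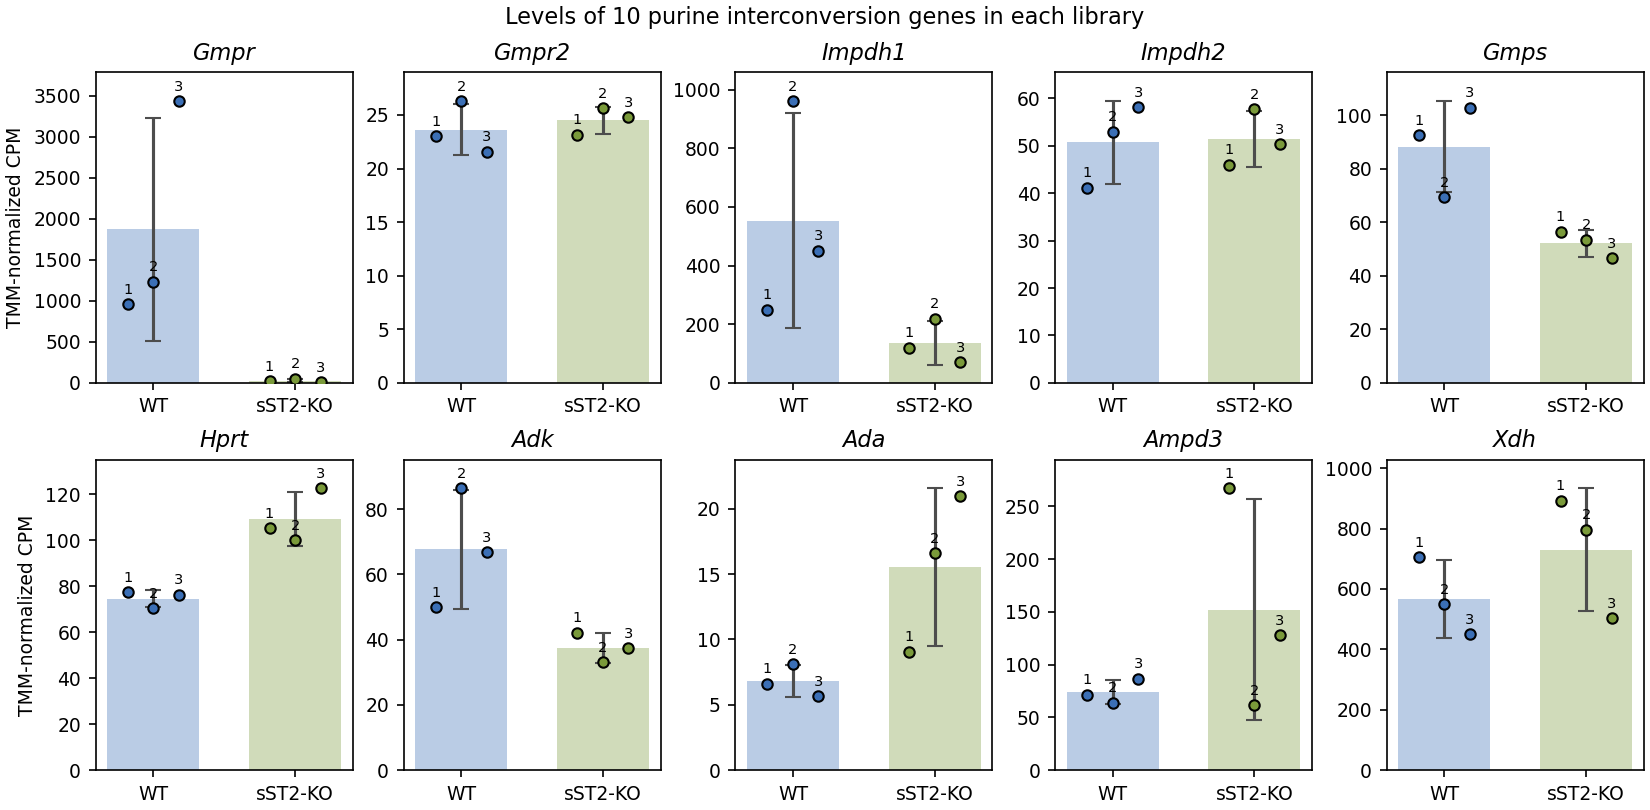
Normalized level of each of the 10 members in every library, in CPM on a linear axis that differs between panels, with WT and sST2-KO side by side. Each point is 1 mouse and each bar a group mean; the Gmpr points lie at 957 to 3436 CPM in WT and at 11.2 to 49.3 CPM in sST2-KO.

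Gmpr2 encodes the other GMP reductase, which is expressed in many tissues. The gene occupies chr14:55909398-55917103 (GRCm39, plus strand), where it overlaps Nedd8 and Tinf2 on the other strand. Its levels were 23.0, 26.3 and 21.6 CPM in WT and 23.1, 25.6 and 24.8 CPM in sST2-KO. The values interleaved, and the spread within WT was wider than the distance between the groups. The means were 23.6 ± 2.41 CPM in WT and 24.5 ± 1.27 CPM in sST2-KO (SD, n = 3 each), with a log2 fold change of 0.05 (SE 0.17) and an edgeR adjusted p of 0.856. No 50-base word of Gmpr or of Gmpr2 occurred in another annotated gene, so that reads of the paralogs are not expected to be exchanged.

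Within a library the balance of the paralogs does not depend on how libraries are scaled. Per kilobase of exon, Gmpr made up 94.7%, 95.3% and 98.6% of the summed Gmpr and Gmpr2 level in WT, and 25.0%, 45.4% and 16.3% in sST2-KO. On this scale Gmpr was the major GMP reductase transcript in every WT library and the minor one in every sST2-KO library. In sST2-KO replicate 2 that order depended on scaling for length, since its counts were 415 for Gmpr and 216 for Gmpr2. The log2 ratio of Gmpr counts to Gmpr2 counts was 5.37, 5.55 and 7.31 in WT and -0.37, 0.94 and -1.15 in sST2-KO. These ratios contain Gmpr and are given without a test.

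IMP dehydrogenase oxidizes IMP to XMP in the rate-limiting step towards guanine nucleotides, and mammals have separate genes for its isoforms, of which IMPDH2 is the one known to rise in dividing cells. Impdh1 occupies chr6:29200429-29216363 (GRCm39, minus strand). Its levels were 250, 961 and 450 CPM in WT and 120, 220 and 71.1 CPM in sST2-KO. Every sST2-KO library was below every WT library, although the lowest WT value and the highest sST2-KO value lay close together. The mean was 554 ± 366 CPM in WT and 137 ± 75.7 CPM in sST2-KO (SD, n = 3 each). The log2 fold change was -2.02 (SE 0.58), a 4.04-fold lower level, with an edgeR adjusted p of 0.0486. WT replicate 2, the library with the hepatocyte transcripts, held the highest Impdh1 value, and without it the log2 difference was -1.36 (adjusted p 0.135). The call was also lost without WT replicate 3, sST2-KO replicate 1 or sST2-KO replicate 3, where the fitted log2 difference was -2.15, -1.92 and -1.70 in that order (adjusted p 0.116, 0.11 and 0.112).

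Impdh2, at chr9:108437485-108442783 (GRCm39, plus strand), had 41.1, 53.0 and 58.1 CPM in WT and 46.0, 57.7 and 50.4 CPM in sST2-KO. The groups overlapped throughout. The means were 50.7 ± 8.68 and 51.3 ± 5.90 CPM (SD, n = 3 each), the log2 fold change was 0.02 (SE 0.19) and the edgeR adjusted p was 0.958. The Impdh2 level is less certain than the others, since 35.8% of its 50-base words also occur in another annotated locus, a pseudogene copy. Beside it, the sum of 8 proliferation markers was 97.4 to 136 CPM in WT and 217 to 339 CPM in sST2-KO, each marker higher in every sST2-KO library, and their part in the Impdh2 level was not tested.

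The balance of the IMP dehydrogenase isoforms also shifted away from the isoform that was higher in WT. Per kilobase of exon, Impdh1 made up 75.6%, 90.2% and 79.8% of the summed Impdh1 and Impdh2 level in WT and 57.1%, 66.0% and 41.8% in sST2-KO. The groups did not overlap, and Impdh1 remained the larger share in 5 of 6 libraries. The log2 ratio of their counts was 3.25 ± 0.83 in WT and 1.27 ± 0.72 in sST2-KO (SD, n = 3 each), a difference of -1.98. A two-sided exact permutation test gave p = 0.1, the smallest value that 3 against 3 libraries can give.

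**Figure D2:**
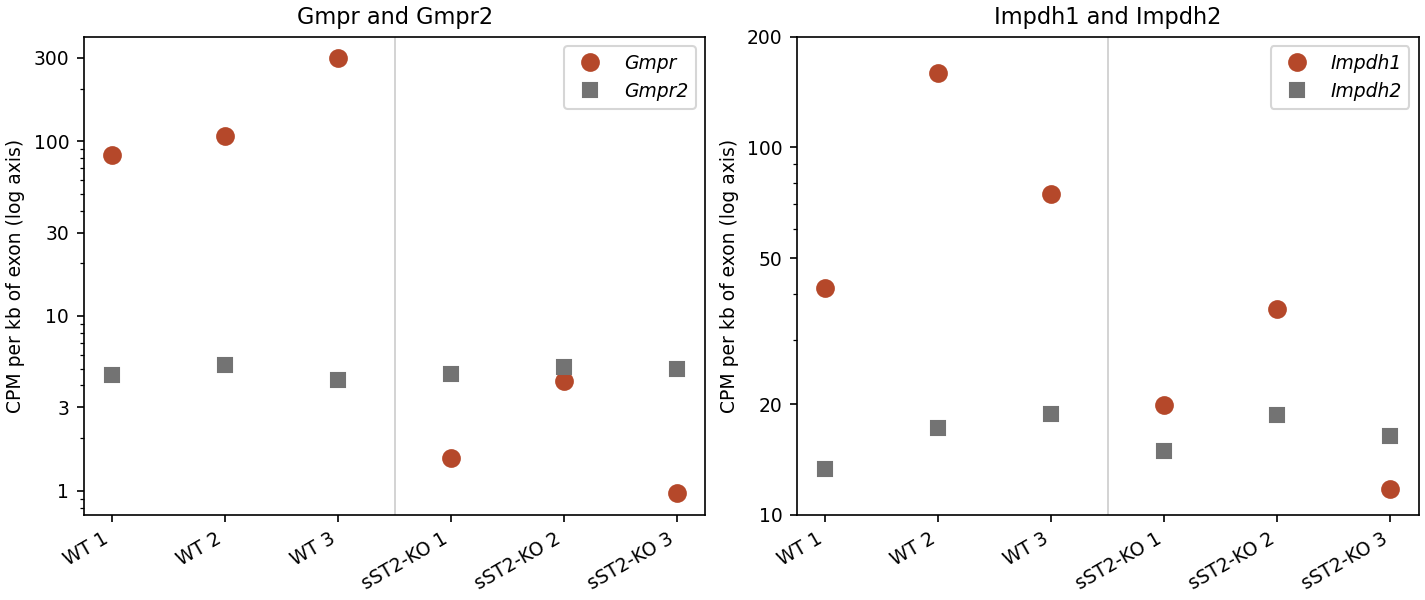
Level in CPM per kilobase of exon, on a log axis, of Gmpr and Gmpr2 on the left and of Impdh1 and Impdh2 on the right, in each library. Computed from these levels, Gmpr made up 94.7% to 98.6% of its pair in WT and 16.3% to 45.4% in sST2-KO. Impdh1 made up 41.8% or more of its pair in every library.

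Gmps encodes GMP synthetase, which aminates XMP to GMP and so completes the arm that starts with IMP dehydrogenase. Its locus is chr3:63883515-63931037 (GRCm39, plus strand). Its levels were 92.5, 69.5 and 103 CPM in WT and 56.5, 53.4 and 46.6 CPM in sST2-KO. All 3 sST2-KO libraries were below all 3 WT libraries, and they were closer to each other than the WT libraries were. The means were 88.2 ± 17.0 and 52.2 ± 5.07 CPM (SD, n = 3 each), with a log2 fold change of -0.76 (SE 0.20) and an edgeR adjusted p of 0.0386. The direction stayed with every library left out, but the adjusted p rose to between 0.0518 and 0.147 each time.

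The arms of the loop can be set against each other within a library. Per kilobase of exon, Gmpr made up 60.2%, 37.8% and 76.1% of the summed Gmpr, Impdh1 and Impdh2 level in WT and 4.25%, 7.19% and 3.32% in sST2-KO. The enzyme that leads away from GMP and those that lead towards it were of a similar order in WT, and the share of the former was 7.19% or less in each sST2-KO library. The log2 ratio of Gmpr counts to the summed Impdh1 and Impdh2 counts differed by -4.63 between the genotypes. These are transcript levels, and no enzyme activity or nucleotide pool was measured.

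Hprt and Adk belong to salvage, the reuse of bases and nucleosides. Hprt encodes the phosphoribosyltransferase that turns hypoxanthine into IMP and guanine into GMP, from chrX:52076892-52111304 (GRCm39, plus strand). Its levels were 77.2, 70.4 and 76.2 CPM in WT and 105, 100 and 123 CPM in sST2-KO. The WT libraries lay within a narrow range and every sST2-KO library was above it. The means were 74.6 ± 3.69 and 109 ± 11.8 CPM (SD, n = 3 each), with a log2 fold change of 0.55 (SE 0.17) and an edgeR adjusted p of 0.0575, which missed the threshold. With libraries scaled by total counts the log2 difference was 0.82 (adjusted p 0.0271), and in DESeq2 the adjusted p was 0.0341.

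Adk encodes adenosine kinase, which returns adenosine to AMP, from chr14:21102618-21499916 (GRCm39, plus strand). Its levels were 49.9, 86.3 and 66.8 CPM in WT and 42.1, 33.0 and 37.3 CPM in sST2-KO. The groups did not overlap, with WT replicate 1 nearest to sST2-KO. The means were 67.7 ± 18.2 and 37.5 ± 4.56 CPM (SD, n = 3 each), with a log2 fold change of -0.85 (SE 0.23) and an edgeR adjusted p of 0.0421. The call held without WT replicate 1 and was lost without any one of the other 5 libraries. WT replicate 2, with its hepatocyte transcripts, was again the highest, and without it the log2 fold change was -0.64 with an adjusted p of 0.119. The part of those transcripts in the Impdh1 and Adk levels was not tested beyond leaving the library out.

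Ada encodes adenosine deaminase, the enzyme that competes with adenosine kinase for adenosine and makes inosine from it. It is transcribed from chr2:163565705-163592159 (GRCm39, minus strand). Its levels were 6.62, 8.10 and 5.67 CPM in WT and 9.06, 16.6 and 20.9 CPM in sST2-KO. All sST2-KO values were above all WT values, and sST2-KO replicate 1 was near the WT range. The means were 6.80 ± 1.23 and 15.5 ± 6.01 CPM (SD, n = 3 each), with a log2 fold change of 1.18 (SE 0.35) and an edgeR adjusted p of 0.0508. This lies at the edge of the threshold, and without sST2-KO replicate 1 the adjusted p was 0.0272 at a log2 fold change of 1.46. DESeq2 gave Ada an adjusted p of 0.0200. Ada is known to be abundant in lymphocytes, and the sum of 11 lymphocyte genes was 41.6 to 54.8 CPM in WT and 252 to 436 CPM in sST2-KO, 9 of the 11 higher in every sST2-KO library. The 3 sST2-KO libraries stood in the same order for Ada and for this sum, but the WT libraries did not. WT replicate 2 was the highest for Ada and WT replicate 1 for the sum. Much of the sum in sST2-KO came from Ptprc, at 125, 174 and 283 CPM. Among single lymphocyte genes, Cd3e and Cd2 had the order of Ada in sST2-KO, while Cd8a, Cd3d and Cd3g were lowest in replicate 2. The part of the lymphocyte transcripts in the Ada level was not tested.

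Ampd3 encodes the AMP deaminase isoform first known from erythrocytes, which makes IMP directly from AMP. Its locus is chr7:110366387-110411617 (GRCm39, plus strand). Its levels were 71.4, 64.0 and 86.7 CPM in WT and 267, 61.5 and 128 CPM in sST2-KO. The sST2-KO libraries were scattered on both sides of the WT range, and replicate 1 was the highest. The means were 74.0 ± 11.6 and 152 ± 105 CPM (SD, n = 3 each), with a log2 fold change of 1.04 (SE 0.48) and an edgeR adjusted p of 0.160. This value depended on single libraries. The Ampd3 log2 fold change came to 0.35 (adjusted p 0.483) once sST2-KO replicate 1 was left out, and to 1.39 (adjusted p 0.0436) once sST2-KO replicate 2 was. The sum over 7 erythrocyte genes was 485 to 1587 CPM in WT and 11.2 to 108 CPM in sST2-KO, and their part in the Ampd3 level was not tested.

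Xdh encodes xanthine dehydrogenase, which oxidizes hypoxanthine to xanthine and then to urate. The gene is found at chr17:74190203-74257399 (GRCm39, minus strand). Its levels were 705, 549 and 450 CPM in WT and 892, 796 and 503 CPM in sST2-KO. The groups overlapped, with sST2-KO replicate 3 inside the WT range. The means were 568 ± 129 and 730 ± 203 CPM (SD, n = 3 each), with a log2 fold change of 0.36 (SE 0.31) and an edgeR adjusted p of 0.430.

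Of the 9 members other than Gmpr, 3 were called lower in sST2-KO (Impdh1, Gmps and Adk) and none higher, where the background was 9.1% of all tested genes called lower and 10.5% called higher. With a fold change above 2 as well, 1 of the 9 was called lower (Impdh1) and none higher, against 7.1% and 9.04% of all genes. All 3 libraries of sST2-KO lay below all 3 of WT for those 3 members and above them for 2 (Hprt and Ada), against 19.7% and 21.8% of all genes. The median log2 fold change of the 10 members was 0.03, the same to 2 decimals as that of all genes tested. The list was drawn up around Gmpr with results of this contrast known, so nothing is read from these counts. At an unadjusted p under 0.05, 2 members were higher, and DESeq2 called Hprt and Ada higher. With libraries scaled by total counts, Impdh1, Gmps and Adk were no longer called, at log2 fold changes of -1.77, -0.49 and -0.58 (adjusted p 0.0549, 0.113 and 0.117), and Gmps was not called without the filter on low counts either (adjusted p 0.0526).

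**Figure D3:**
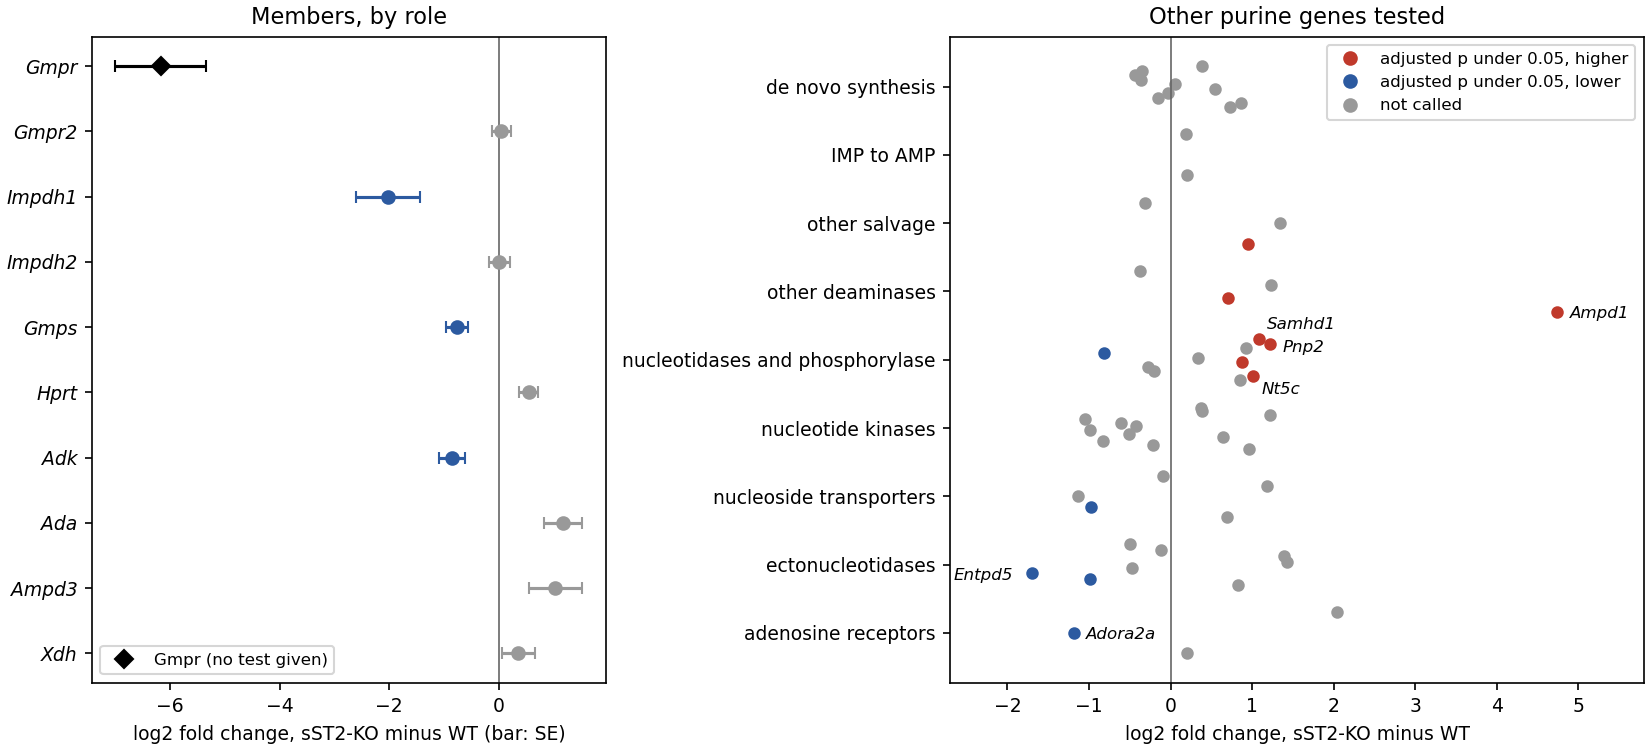
Log2 fold change (sST2-KO minus WT) of the 10 members with SE bars on the left, and of the other purine genes tested, grouped by role, on the right. Gmpr, the black diamond, has no test since it chose the list; red and blue points were called higher and lower at an adjusted p below 0.05, and grey points were not called.

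Because a longer transcript yields more reads, members were ranked against each other per kilobase of annotated exon. On that scale Gmpr was the most abundant member in WT, at 163 ± 118 CPM per kb, and the least abundant in sST2-KO, at 2.26 ± 1.76 CPM per kb (SD, n = 3 each). Impdh1 followed in WT at 91.6 ± 60.6 CPM per kb, and these neighbours did not differ beyond their spread. In WT replicate 2 Impdh1 was above Gmpr, at 159 against 107 CPM per kb. Xdh was next at 44.1 ± 9.99 CPM per kb in WT, and it was the most abundant member in sST2-KO at 56.7 ± 15.8 CPM per kb, above Impdh1 at 22.6 ± 12.5 CPM per kb. Impdh2 came after Xdh in WT and kept the same place in sST2-KO, at 16.5 ± 2.82 and 16.7 ± 1.92 CPM per kb. The remaining members lay between 1.28 and 9.58 CPM per kb in WT, with Ada the lowest. With the length of the longest transcript in place of the union of exons, Gmpr was again first in WT and stood ninth in sST2-KO, above Ada.

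The pattern of Gmpr over the 6 libraries was most like that of Elovl3, an elongase of very long fatty acids that marks activated brown fat. Likeness was measured as the root mean square difference of log2 CPM centred on each gene, over the 6 libraries and 11949 other genes, and was 0.54 for Elovl3. Next came Gys2, a glycogen synthase, at 0.74, and Ucp1, the uncoupling protein itself, at 0.92. Ucp1 had 5229, 6460 and 10520 CPM in WT and 160, 1042 and 153 CPM in sST2-KO, so that its libraries stood in the same order as those of Gmpr. Hba-a2, an alpha globin with a near-identical copy, followed at 0.94 with 0.20 to 37.6 CPM, and Mfsd2a, a lysophospholipid transporter, at 0.99. All 5 genes shared the difference between the genotypes with Gmpr, with log2 fold changes from -5.68 to -4.04. Their choice by likeness to Gmpr fixed this in advance, so nothing is read from it. The order of the WT libraries was that of Gmpr for Ucp1, Hba-a2 and Mfsd2a. It was another for Elovl3 and Gys2, which were lowest in WT replicate 2, at 76.5 and 31 CPM.

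**Figure D4:**
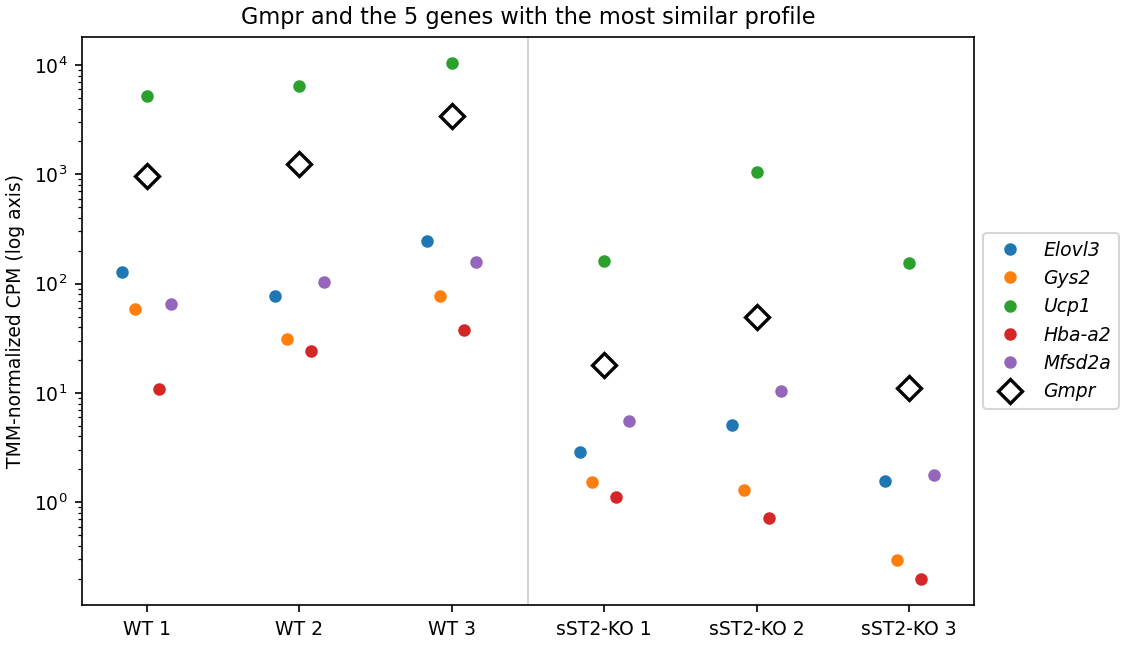
Normalized level of Gmpr (open diamonds) and of the 5 genes with the most similar pattern, in CPM on a log axis, plotted by library. All 6 genes are higher in the 3 WT libraries than in the 3 sST2-KO libraries. The levels shown are not centred, so that likeness cannot be read from the distance between points. After centring, Elovl3 was closest to Gmpr, with a root mean square difference of 0.54.

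The rest of purine metabolism was represented by a list of 71 further genes, 57 of which passed the filter. Of these, 7 were called higher in sST2-KO, 5 lower and 45 not at all, and the median log2 fold change was 0.20 against 0.03 over all genes. These counts lie near the background of 10.5% higher and 9.1% lower, so that nothing is read from them for the list, and the genes below are given as single values. None of the 10 genes of de novo IMP synthesis and none of the 12 nucleotide kinases tested was called by edgeR, with medians of 0.02 and -0.32.

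Among the deaminases Ampd1, the skeletal muscle isoform of AMP deaminase, had 0.65, 0.94 and 0.37 CPM in WT and 7.39, 11.6 and 35.5 CPM in sST2-KO. Its log2 fold change was 4.74 (SE 0.72, edgeR adjusted p 0.0136), the largest of the list, and the call was lost without WT replicate 3 (adjusted p 0.0621). The sum of the 10 skeletal muscle markers was 1264, 21.1 and 6.41 CPM in WT and 6590, 3573 and 15140 CPM in sST2-KO. Both were highest in sST2-KO replicate 3, but the order of the other sST2-KO libraries was reversed and the high marker sum of WT replicate 1 had no counterpart in Ampd1. The part of the markers in the Ampd1 level was not tested. Ampd1 thus differed from Ampd3, whose highest library was sST2-KO replicate 1.

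Of the 10 enzymes tested that dephosphorylate nucleotides or cleave nucleosides, 3 were called higher by more than 2-fold, where 9.04% of all genes were. Samhd1, which hydrolyses deoxynucleoside triphosphates, had 424, 396 and 317 CPM in WT and 657, 814 and 938 CPM in sST2-KO (log2 fold change 1.08, edgeR adjusted p 0.0268). Nt5c, a nucleotidase of the cytosol, was higher by 1.02 on the log2 scale (adjusted p 0.0219), and Pnp2, a purine nucleoside phosphorylase, by 1.22 (adjusted p 0.0291). Reads of Pnp2 are uncertain because it is a close copy of Pnp. Each call depended on single libraries. It was lost for Nt5c without any one of 3 libraries, and for Pnp2 and Samhd1 without any one of 4, WT replicates 2 and 3 and sST2-KO replicate 3 in all cases, with adjusted p values of up to 0.0968, 0.115 and 0.118. Samhd1 is abundant in macrophages, and the sum of 8 macrophage genes was 729, 653 and 503 CPM in WT and 1303, 1144 and 5252 CPM in sST2-KO, with 5 of the 8 higher in every sST2-KO library. The WT libraries stood in the same order for both. In sST2-KO, replicate 3 was the highest for both, while replicates 1 and 2 stood in the opposite order. The part of the macrophage transcripts was not tested.

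On the side of extracellular adenosine, Adora2a, the receptor through which adenosine is known to activate brown adipocytes, had 54.9, 58.9 and 72.0 CPM in WT and 41.9, 22.6 and 16.9 CPM in sST2-KO (log2 fold change -1.19, SE 0.33, edgeR adjusted p 0.0455). Every sST2-KO library was below every WT library, but the call held only without sST2-KO replicate 1 and was lost without any one of the other 5 libraries (adjusted p up to 0.154) and with total counts (adjusted p 0.0832). Entpd5, a nucleoside diphosphatase of the endoplasmic reticulum, was lower as well, at 107 to 116 CPM in WT and 17.5 to 44.0 CPM in sST2-KO (log2 fold change -1.69, adjusted p 0.0185), and its call was lost without WT replicate 2 or WT replicate 3 (adjusted p up to 0.0717). The other genes called changed by less than 2-fold, were named after their values were seen and were not refitted with single libraries left out. Aprt, which salvages adenine, Ampd2, the AMP deaminase of most tissues, and Nt5c3, a nucleotidase, had log2 fold changes of 0.95, 0.70 and 0.87 (edgeR adjusted p 0.0485, 0.0494 and 0.0322). Slc29a1, the nucleoside transporter ENT1, Entpd2, which splits extracellular ATP, and Nt5m, a mitochondrial nucleotidase, had log2 fold changes of -0.97, -0.99 and -0.82 (edgeR adjusted p 0.0199, 0.0337 and 0.0379).

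**Figure D5:**
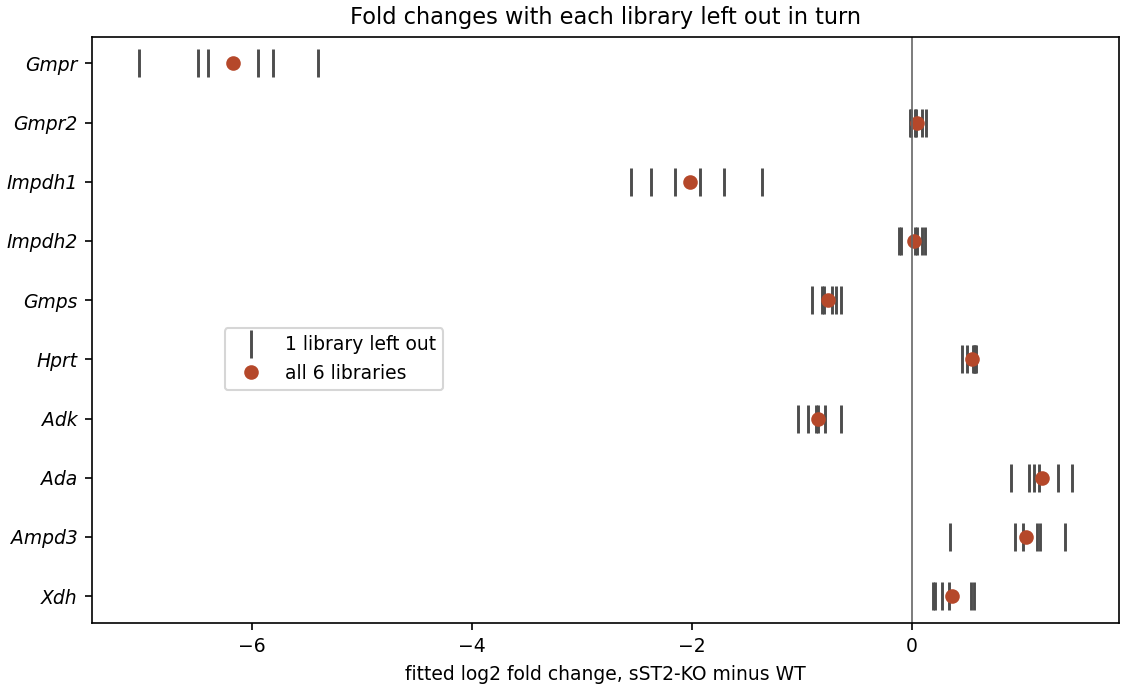
Log2 fold change (sST2-KO minus WT) of each member in the fit of all 6 libraries and in the 6 fits that each lack 1 library. The Gmpr values stay between -7.03 and -5.40, and those of Impdh1 between -2.55 and -1.36.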

How the data were processed

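Poly-A RNA of 6 BAT samples was sequenced as paired reads of 150 bases. Per the study's methods and the submitters' processing notes, the authors checked reads with FastQC 0.12.1, aligned them to mm39 with HISAT2 2.2.1 and counted reads per gene with htseq-count, and they deposited 1 table of raw counts, which is the unit used here. The htseq-count version and strand setting are not given in the sources used here. Genotypes and replicate numbers were taken from the sample titles.

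Counts were filtered with filterByExpr, scaled by TMM and tested, sST2-KO minus WT, with the quasi-likelihood test of edgeR 4.0.16 in R 4.3.3 without covariates, with Benjamini-Hochberg adjustment over all genes tested and a threshold of 0.05. DESeq2 1.42.0, other scalings, filters, thresholds, a replicate block and each library left out were the alternatives. Ratios were taken of raw counts with 0.5 added. Only the ratio of Impdh1 to Impdh2, which does not contain Gmpr, was tested, by exact permutation. Exon lengths came from GENCODE on GRCm39, and promoters from RefSeq, which held no Xdh entry. The p-values rest on the spread between 3 mice per genotype.

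The members and all gene lists were chosen with earlier results of these data known. Named genes were all members, the genes of the other purine list and of the pyrimidine list called with a fold change above 2, at most 4 per role and direction, and the 5 genes most like Gmpr above a mean log2 CPM of 2. Marker lists were summed as CPM; 8 endothelial genes summed to 1217 to 1475 CPM in WT and 1170 to 1852 CPM in sST2-KO.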

Additional observations from a re-analysis of the deposited data

How the results depend on the processing

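Gmpr kept its direction under every alternative, at log2 fold changes between -7.03 and -5.40 with 1 library left out and -6.15 with the replicate block. Members called higher (none with all libraries under the settings used above) numbered 2 with total counts, 1 without a filter, 1 with at least 10 counts per library, 2 in DESeq2, 1 with robust dispersions, 2 unadjusted and 0 to 1 with 1 library left out. Members called lower (4, with Gmpr, which chose the list) numbered 1 with total counts, 0 with the replicate block, 2 with the 2-fold minimum and 1 to 3 with 1 library left out. Other purine genes called higher (7) and lower (5) numbered 13 and 1 with total counts, 13 and 10 in DESeq2, 0 and 0 with the replicate block, 4 and 2 with the 2-fold minimum, 21 and 10 unadjusted, and 0 to 10 and 0 to 6 with 1 library left out. Pyrimidine genes called higher (5) and lower (3) numbered 8 higher with total counts, 8 higher in DESeq2, 0 and 0 with the replicate block, 10 and 5 unadjusted, and 0 to 6 and 0 to 3 with 1 library left out. Over all genes, 1524 were higher and 1323 lower, against 2181 and 891 with total counts, 0 and 0 with the replicate block, 2846 and 2423 unadjusted, and 36 to 1502 and 22 to 1189 with 1 library left out. The libraries that moved these counts most were WT replicate 3 (36 and 22 without it), WT replicate 2 (393 and 483) and sST2-KO replicate 3 (724 and 692). The direction of Gmpr2 and Impdh2, whose log2 fold changes were near 0, turned in some fits, with Gmpr2 between -0.0144 and 0.13 with 1 library left out, at -0.0144 without WT replicate 3 and -0.0016 without sST2-KO replicate 2, and Impdh2 at -0.0003 with RLE factors, -0.0017 in DESeq2 and between -0.12 and 0.12 with 1 library left out. The cause of these changes was not tested.

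Total counts moved the median log2 fold change of all genes from 0.03 to 0.29. Same-numbered WT and sST2-KO libraries had deviations that correlated at -0.06, 0.21 and -0.31, and the mice were not treated as pairs. The titles do not say whether same-numbered mice were related or handled together, and these correlations cannot decide it. The replicate block leaves fewer degrees of freedom. With 3 mice per genotype, the members called at an adjusted p near 0.05 (Impdh1, Gmps and Adk) each depended on single libraries. Genes at a few CPM, such as Ada and Ampd1, rest on the lowest counts.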

Other observations

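Genes of pyrimidine and deoxynucleotide metabolism were taken as another list in the same libraries. Of its 26 genes, 23 were tested, 5 were called higher in sST2-KO and 3 lower, and the median of their log2 fold changes was 0.30. Over all genes tested 10.5% were called higher and 9.1% lower, and nothing is read from the counts of so short a list. Ctps1, which makes CTP, had 14.6 to 21.2 CPM in WT and a mean of 54.3 ± 11.5 CPM in sST2-KO (SD, n = 3), at a log2 fold change of 1.54 (edgeR adjusted p 0.0136). Upp1, a uridine phosphorylase, had a log2 fold change of 1.58 (edgeR adjusted p 0.0154). Rrm2 and Dut, which supply deoxynucleotides for DNA synthesis, had log2 fold changes of 1.95 and 1.17 (edgeR adjusted p 0.0187 and 0.0284). The calls of Ctps1 and Upp1 were lost without WT replicate 3 (adjusted p 0.0614 and 0.0708), that of Rrm2 without WT replicate 2 or 3 (up to 0.0705) and that of Dut without any one of 4 libraries, WT replicates 1 and 3 and sST2-KO replicates 2 and 3 (up to 0.114). The 8 proliferation markers were higher in the same libraries, and their part was not tested. Tyms, named after its value was seen, had a log2 fold change of 0.97 (edgeR adjusted p 0.0497).

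In the other direction Uck1, a uridine and cytidine kinase, had a mean of 272 ± 78.3 CPM in WT and 75.9 ± 39.3 CPM in sST2-KO (SD, n = 3 each), at a log2 fold change of -1.84 (edgeR adjusted p 0.0296). Tymp, a thymidine phosphorylase, had a log2 fold change of -2.22 (edgeR adjusted p 0.0220) at only a few CPM, and Cad, which starts pyrimidine synthesis and was named after its value was seen, one of -0.72 (edgeR adjusted p 0.0336). The call of Uck1 was lost without WT replicate 2, WT replicate 3 or sST2-KO replicate 1 (edgeR adjusted p up to 0.109), and that of Tymp without any one of 4 libraries, WT replicates 2 and 3 and sST2-KO replicates 1 and 3 (up to 0.0761). The urate-degrading Uox had 53.4 CPM in WT replicate 2 and 0 to 0.47 CPM in the other WT libraries, the same library that held the hepatocyte transcripts.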
